A study of Mus musculus with 4 samples.

Results

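Claudin 5 is a tight junction protein best known from the lining of blood vessels, where it seals the contacts between endothelial cells. Blood stem cells arise in the embryo from endothelium and, in the adult mouse marrow, go on using several genes of vessel lining, among them the stem cell gene Procr and, in platelet-biased stem cells, Vwf. Hlf encodes a transcription factor that marks stem cells and early progenitors of blood.

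The cells described here are the Cldn5-positive cells of a sorted gate of mouse cells that the labels call type H vessel. A cell was taken when it had at least 200 genes, under 10% mitochondrial counts, at least 1 Cldn5 UMI (unique molecular identifier, 1 counted transcript molecule), under 2% Jchain and under 3 UMIs of Pf4 and Ppbp together. The last pair of limits removed plasma cells and cells with platelet transcripts. This gave 99 of the 3567 cells kept in the whole series, 83 in the type H library labelled knockout and 16 in the type H library labelled control. They were set against 1178 cells of the labelled knockout and 524 cells of the labelled control that came from the same gate and filters, held no Cldn5 UMI and held at least 1 Hlf UMI. These are called Cldn5-negative Hlf-positive cells below.

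Single cells were captured on 10x Genomics Chromium chips and the ends of their transcripts were counted. The knockout mice carried CDH5-CreER and are labelled ID1-/- ID3-/-. The control mice carried CDH5-CreER too and are given as ID1 +/+ and ID3 +/-, although the sample titles call them wild type. Tamoxifen was injected on 5 consecutive days to delete Id1. The CreER is driven by Cdh5, the gene of VE-cadherin, which is active in endothelium. Per the labels, the type H gate took cells without lineage antigens that stained for CD31, VECadherin, Endomucin and Sca, and the study design gives 20000 sorted cells. The 2 further libraries, of the Sca-negative sinusoidal gate, enter only the share of cells with Cldn5. The sources used here do not give the number or age of the mice, or whether mice were pooled. With 1 library a group there are no replicates, so no test was run, and every interval is a 95% interval that covers counting error only.

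The type H libraries held 11065352 UMIs (labelled knockout) and 5703108 UMIs (labelled control). The median Cldn5-positive cell had 6172 UMIs (labelled knockout) or 7241.5 UMIs (labelled control), against 5717.5 and 6438.5 in Cldn5-negative Hlf-positive cells of the same libraries. No Cldn5-positive cell was marked as a doublet by Scrublet. UMIs of both Xist and Y-linked genes stood together in 4 of 83 and 0 of 16 Cldn5-positive cells, against 14 of 1178 and 10 of 524 Cldn5-negative Hlf-positive cells. A single Cldn5-positive cell barcode, of the labelled knockout, also occurs in another library, the sinusoidal control.

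The gene that chose the cells is shown by its promoter, from 250 bases before to 50 bases after the start site, beside that of Tm4sf1, an endothelial membrane protein gene that stood high in the same cells. Both sequences are from RefSeq on GRCm38.p6, and the windows are chr16:18776597-18776896, plus strand, for Cldn5 and chr3:57301939-57302238, minus strand, for Tm4sf1. In GENCODE M21, on the same build, the protein-coding gene Cldn5 spans chr16:18776847-18778262 and Tm4sf1 spans chr3:57285611-57301988. Capitals mark the E-boxes CAGCTG and CACCTG, the kind of site that E proteins bind and from which Id proteins keep them.
Cldn5: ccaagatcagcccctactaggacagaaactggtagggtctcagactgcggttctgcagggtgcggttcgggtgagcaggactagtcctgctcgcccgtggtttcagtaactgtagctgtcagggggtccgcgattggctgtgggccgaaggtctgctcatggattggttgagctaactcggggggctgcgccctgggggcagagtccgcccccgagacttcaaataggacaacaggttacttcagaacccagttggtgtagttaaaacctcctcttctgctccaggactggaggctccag
Tm4sf1: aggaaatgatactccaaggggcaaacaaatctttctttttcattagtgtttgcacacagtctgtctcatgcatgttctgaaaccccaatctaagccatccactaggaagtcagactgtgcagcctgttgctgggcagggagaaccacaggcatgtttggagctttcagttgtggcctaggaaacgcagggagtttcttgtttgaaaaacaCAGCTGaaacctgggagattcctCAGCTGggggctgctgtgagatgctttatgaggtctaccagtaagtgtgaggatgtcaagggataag
The Tm4sf1 window held 2 copies of CAGCTG, starting 40 and 17 bases before the start site, and the Cldn5 window held neither E-box. Over 32851 promoters of the same length, 16.3% held CAGCTG and 20.2% held CACCTG or its reverse CAGGTG. In all 6 motifs were searched on both strands in the promoters of 12 genes, of which 9 were in the table. Tm4sf1 was chosen for printing because it had matches. AGATAA stands in 11.2% of all promoters, GGAA in 96.0%, CCGGAAG in 8.86% and ACCGGAAG in 2.30%, and the last 2 contain GGAA. None of the 6 was in the Cldn5 window, and an E-box stood in 3 of the 9 genes.

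Cldn5-positive cells were a small part of the type H gate. They made up 4.47% of the kept cells in the library labelled knockout (3.58 to 5.51%, 83 of 1857) and 1.99% in the library labelled control (1.14 to 3.20%, 16 of 806). Cldn5 gave no UMI in the sinusoidal gate, in 553 cells of the labelled knockout and 351 of the labelled control. Taking 3 cells as the floor, this allows shares of up to 0.542% and 0.855%. Cells with at least 2% Jchain, which should lack Cldn5, serve as a gauge of free RNA. In the labelled knockout 9 of 161 such cells held Cldn5 (5.59%, 2.59 to 10.3%), against 5.08% of Hlf-positive and 4.57% of Hlf-negative cells, at median depths of 7484, 5772 and 4134 UMIs. Thinned to 2000 UMIs a cell, the shares were 1.86%, 2.84% and 3.55%. In the labelled control Cldn5 was seen in 0 of 108 Jchain-high cells (0 to 3.36%). It was seen in 2.96% of Hlf-positive cells (1.70 to 4.77%), a share within the interval of the gauge, and in 0 of 147 Hlf-negative cells (0 to 2.48%). In the labelled knockout the shares at full depth were not above the gauge, whose cells were deeper. The thinned shares were above the thinned gauge of 1.86%, and whether they differ from it was not tested. They lay within the interval of the gauge at full depth, which sets unlike depths against each other. With at least 2 Cldn5 UMIs the shares were 2.42% of Hlf-positive cells against 1.86% of Jchain-high cells (0.386 to 5.35%). No difference in abundance between the libraries is read from these shares.

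Many of these cells had more than 1 Cldn5 molecule. In the labelled knockout 41 cells sat at the lower edge of the rule with 1 Cldn5 UMI, 42 had at least 2, 24 had at least 4 and the highest had 14. In the labelled control 9 cells had 1, 7 had at least 2, 6 had at least 4 and the highest had 15. The cells just outside the rule, the Cldn5-negative ones, had 0. Jchain reached at most 0.129% and 0.0852% of UMIs in the Cldn5-positive cells of the labelled knockout and the labelled control. The 9 Cldn5 cells that the Jchain limit left out, all in the labelled knockout, began at 2.94%. They carried 6 times a single Cldn5 UMI and once each 2, 4 and 5, and held 0 UMIs of Clu, 0 of Gpx3, 1 of Tm4sf1 and 1 of Sult1a1, genes that were high in the cells kept. Vwf, also high in the cells kept, had 4 UMIs in them, 2.10 times its level per UMI in Cldn5-negative Hlf-positive cells (0.564 to 5.49). The limit on Pf4 and Ppbp left out no Cldn5 cell.

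**Figure D1:**
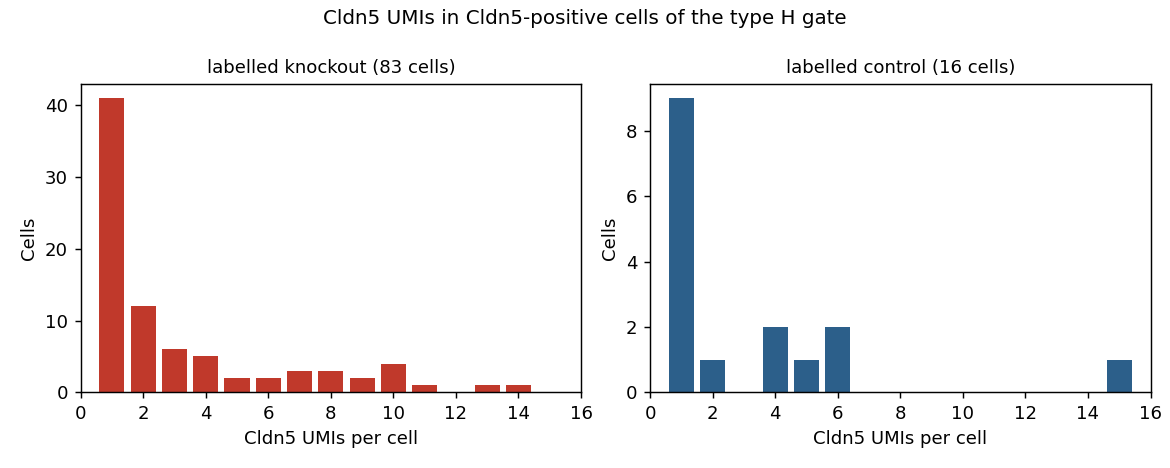
Number of Cldn5-positive cells (y axis) at each number of Cldn5 UMIs per cell (x axis), in the library labelled knockout (83 cells, left) and the library labelled control (16 cells, right). In both libraries the tallest bar is at 1 UMI, with 41 and 9 cells, and a tail reaches 14 and 15 UMIs.

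Blood-wide genes were looked at first, which bear on blood identity and not on the label of progenitor. The 15 found in the files include Ptprc, the pan-leukocyte antigen CD45, the lysosomal protein gene Laptm5 and the actin-binding Coro1a. At least 2 of the 15 were seen in 81 of 83 Cldn5-positive cells of the labelled knockout and 16 of 16 of the labelled control. Among Cldn5-negative Hlf-positive cells the same held for 1165 of 1178 and 522 of 524. Ptprc stood at 85.9 CPM (the UMIs of a gene scaled to a common library total, 63.1 to 114, 47 UMIs) in Cldn5-positive cells of the labelled knockout, against 85.8 CPM in Cldn5-negative Hlf-positive cells. In the labelled control it stood at 96.5 CPM (49.9 to 169, 12 UMIs), against 85.0 CPM. The ratios were 1.001 (0.727 to 1.35) and 1.14 (0.581 to 2.01), so no difference was detectable at this depth. A Ptprc UMI was found in 33 of 83 and 10 of 16 Cldn5-positive cells. Plasma cells of the Jchain gauge, which are leukocytes, had it in 31.1% and 36.1%.

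Hlf was present in 63 of 83 Cldn5-positive cells of the labelled knockout and in all 16 of the labelled control. Since Hlf chose the cells set against them, its lower mean level, 259 against 415 CPM in the labelled knockout and 322 against 383 CPM in the labelled control, is a description only. The markers given with the cells were picked from these data, so their values describe them and support nothing. Sult1a1, a sulfotransferase of phenols, stood at 433 CPM in Cldn5-positive cells against 139 CPM in the labelled knockout, and at 233 against 111 CPM in the labelled control. Meg3, an imprinted long noncoding RNA, stood at 342 against 115 CPM and at 217 against 124 CPM. Trim47, of the TRIM family of ubiquitin ligases, stood at 362 against 203 CPM and at 346 against 178 CPM. Meg3 was patchy, with UMIs in 27 of 83 and 5 of 16 cells, and 1 cell carried 59.3% of its UMIs in the labelled control. Without that cell the level there was 92.6 CPM, below that of the Cldn5-negative Hlf-positive cells, from which no cell was taken out.

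Many genes that define endothelium were not detected. Of 20 such genes, 8 had no UMI in any Cldn5-positive cell, namely Cdh5, the VE-cadherin gene used both in the sort and as the driver of CreER, Flt1 and Flt4, receptors for VEGF, the sinusoid scavenger receptor Stab2, the phosphatase gene Ptprb, the transcription factor Sox17, Mmrn2 and She. Cdh5 was also at 0 in the Cldn5-negative Hlf-positive cells of both libraries. Of the same 20 genes, 4 in the labelled knockout and 6 in the labelled control had no UMI in those far more numerous cells. The VEGF receptor Kdr gave 1 UMI in the labelled knockout and 0 in the labelled control. Of 6 endothelial genes, 2 or more were together in 0 of 83 (0 to 4.35%) and 0 of 16 (0 to 20.6%) Cldn5-positive cells. The summed level of the 20 genes was 460 against 370 CPM in the labelled knockout and 402 against 357 CPM in the labelled control. Most of it came from Myct1, which blood progenitors also use, at 289 against 260 CPM and at 217 against 248 CPM. The other genes of the list together thus stood higher in Cldn5-positive cells of both libraries, a difference that was not tested. Blood-wide genes were thus present in nearly every Cldn5-positive cell. Only 7 of the 20 genes that define a vessel cell had enough UMIs, counted over both kinds of cell, in both libraries for the comparison below.

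To compare Cldn5-positive with Cldn5-negative Hlf-positive cells, UMIs were summed over cells and 9749 genes with at least 20 UMIs in each library were taken. At 1.5-fold in the same direction in both libraries, 274 genes were higher (2.81%) and 635 were lower (6.51%) in Cldn5-positive cells. The median gene had only 14 UMIs in the Cldn5-positive cells of the labelled knockout and 3 in those of the labelled control, and 240 and 262 genes passed 1.5-fold in opposite directions, nearly as many as passed it upward in both. A stricter rule added after the values were seen, an interval that leaves out 1 on the same side in both libraries, gave 83 genes higher (0.851%) and 33 lower (0.338%). The genes named next are those whose intervals lay farthest from 1 in both libraries.

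The leading higher genes included several known from vessel lining, among them Tm4sf1, Vwf, Jam2 and Sdpr. Clu, the secreted chaperone clusterin, had 53 UMIs in Cldn5-positive cells of the labelled knockout, 96.8 against 12.4 CPM, a ratio of 7.79 (5.43 to 11.1). In the labelled control it had 16 UMIs, 129 against 8.58 CPM, a ratio of 15 (7.69 to 28.1). Tm4sf1 had 58.5 against 7.83 CPM in the labelled knockout and 105 against 5.90 CPM in the labelled control, with ratios of 7.47 (4.68 to 11.7) and 17.7 (8.20 to 36.8). These levels come from few molecules per cell, with Clu in 28 of 83 and 7 of 16 cells and Tm4sf1 in 20 of 83 and 10 of 16.

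Vwf, the clotting factor of endothelium and platelets, stood at 106 against 19.8 CPM in the labelled knockout and at 105 against 16.6 CPM in the labelled control. Its ratios were 5.34 (3.86 to 7.30) and 6.29 (3.17 to 11.6), and it was seen in 35 of 83 and 10 of 16 Cldn5-positive cells, against 110 of 1178 and 52 of 524 Cldn5-negative Hlf-positive cells. Thinned to 2000 UMIs, the shares were 21.95% and 18.8%, against 2.996% and 3.67%. The Jchain-high gauge had Vwf in 2.48% and 0% of cells. Gpx3, a secreted glutathione peroxidase, was 4.75-fold higher (3.22 to 6.88) in the labelled knockout and 7.71-fold higher (3.26 to 16.4) in the labelled control. Sdpr, also called cavin 2 and part of the caveolar coat, was 3.61-fold (2.71 to 4.76) and 5.14-fold (2.54 to 9.56) higher, while Cav1, the caveolin of endothelium, had no UMI in any Cldn5-positive cell.

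Jam2, a junctional adhesion molecule, stood at 45.7 against 13 CPM in the labelled knockout and at 64.3 against 10.7 CPM in the labelled control, ratios of 3.51 (2.16 to 5.51) and 6.0 (2.43 to 13). Nrg4, a ligand of the receptor ErbB4, was 3.47-fold (2.37 to 4.97) and 4.39-fold (2.18 to 8.09) higher. Neo1, a receptor for netrins and repulsive guidance molecules, was 5.23-fold (1.99 to 12.4) and 12.4-fold (4.33 to 31.3) higher on 8 and 7 UMIs, and in the labelled control it met the minimum of 20 UMIs only with those 7. Of all 274 higher genes, 17 met the minimum of a library only through the Cldn5-positive cells, and Neo1 was the one such gene among the 12. The Ras family gene Rasd1, the exchange factor gene Rasgef1b, the chitinase-like gene Chil5 and the predicted gene Gm10419 completed the 12, with ratios between 2.95 and 4.44 in the labelled knockout and between 4.61 and 7.94 in the labelled control.

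**Figure D2:**
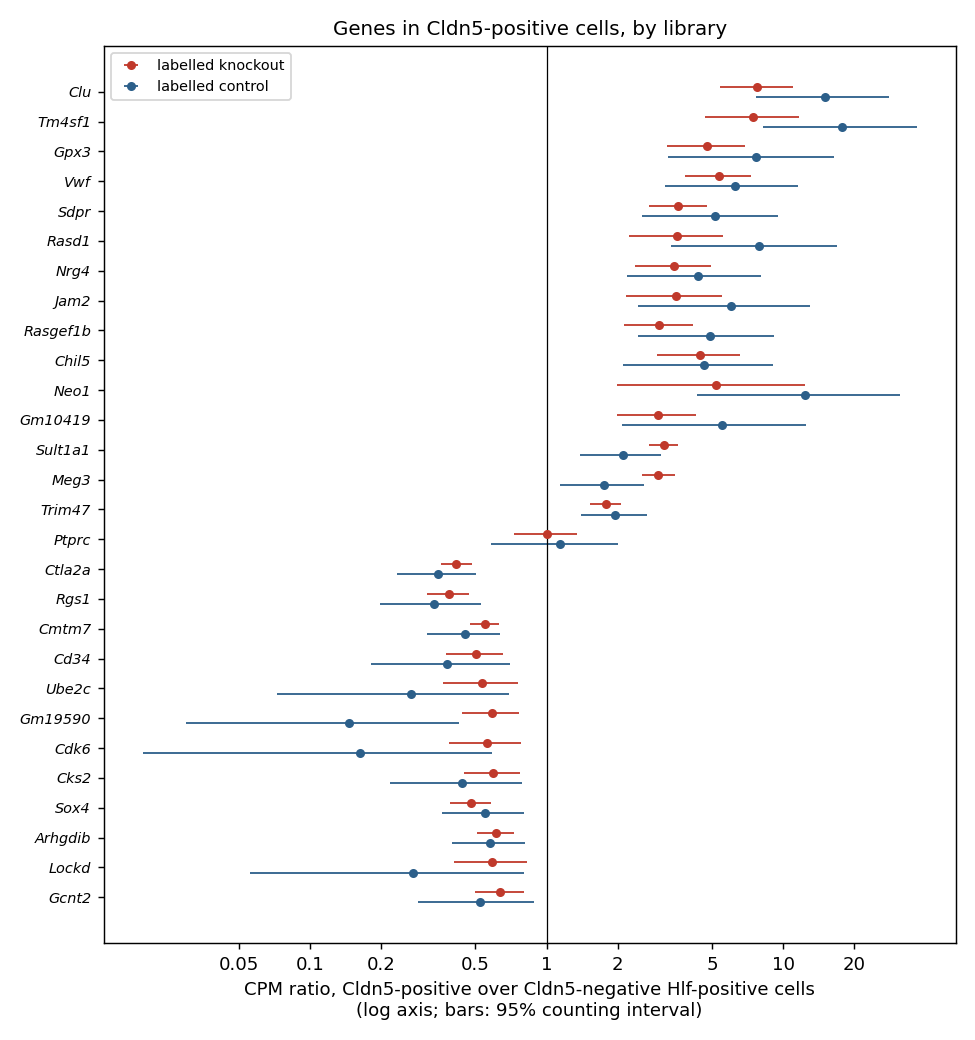
Ratio of CPM in Cldn5-positive over Cldn5-negative Hlf-positive cells (x axis, log scale) for the 12 leading genes of each direction and for Sult1a1, Meg3, Trim47 and Ptprc (y axis), by library. Points are ratios of summed counts and bars are 95% counting intervals. Clu reaches 7.79 and 15, Ptprc lies at 1.001 and 1.14, and Rgs1 at 0.385 and 0.335.

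The leading lower genes included Ctla2a, Rgs1, the progenitor antigen gene Cd34 and some genes of cell division. Ctla2a, a cysteine protease inhibitor, stood at 323 against 777 CPM in the labelled knockout and at 233 against 668 CPM in the labelled control, ratios of 0.416 (0.356 to 0.483) and 0.349 (0.233 to 0.503). Rgs1, a regulator of G protein signalling, stood at 186 against 484 CPM and at 145 against 433 CPM, ratios of 0.385 (0.313 to 0.469) and 0.335 (0.198 to 0.531). Cd34, a sialomucin of progenitors and endothelium that long-term stem cells of the adult mouse largely lack, stood at 100 against 201 CPM and at 80.4 against 212 CPM. Its ratios were 0.501 (0.376 to 0.656) and 0.379 (0.181 to 0.700), and in the labelled control 1 cell gave 60.0% of its 10 UMIs.

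Sox4, a transcription factor of progenitors, was lower at ratios of 0.479 (0.389 to 0.583) and 0.549 (0.361 to 0.802), and the cyclin-dependent kinase gene Cdk6 at 0.558 (0.388 to 0.779) and 0.162 (0.0196 to 0.590). Cmtm7, Arhgdib and Gcnt2, a glycan branching enzyme, had ratios between 0.548 and 0.635 in the labelled knockout and between 0.454 and 0.578 in the labelled control. Gm19590 was lower at 0.586 (0.439 to 0.767) and 0.146 (0.0299 to 0.428), and the noncoding Lockd at 0.587 (0.406 to 0.823) and 0.272 (0.0558 to 0.801), each on 3 UMIs in the labelled control. Ube2c and Cks2, both of mitosis, had ratios of 0.533 and 0.593 in the labelled knockout and 0.268 and 0.439 in the labelled control. Ube2c was carried by 4 of 83 cells and 1 of 16 cells, so few cells set its level.

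Among 44 measured stem cell genes, 13 were higher and 5 lower in both libraries, beside 2.81% and 6.51% of all genes. The median log2 ratio was 0.40 in the labelled knockout and 0.48 in the labelled control, against -0.01 and 0.07 over all genes measured. Sult1a1 and Trim47, the markers picked from these data, are in the list, and without them 11 of 42 genes were higher and 5 lower, with medians of 0.39 and 0.40. Slamf1, the stem cell antigen CD150, stood at 56.6 against 14.1 CPM (ratio 4.01, 2.59 to 6.05) and at 48.3 against 16.6 CPM (2.90, 1.03 to 6.68). Nupr1, a stress-induced chromatin protein gene, stood at 217 against 50.04 CPM (4.35, 3.50 to 5.36) and at 121 against 49.3 CPM (2.45, 1.34 to 4.14). Mycn, a Myc family transcription factor, stood at 214 against 82.6 CPM (2.59, 2.10 to 3.16) and at 257 against 116 CPM (2.22, 1.5 to 3.18). Mllt3, a chromatin factor that maintains human stem cells, was at 1.82 (1.60 to 2.06) and 1.71 (1.30 to 2.21).

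Other higher genes of the list included Pdzk1ip1, Hoxb4, Hoxb5, Fgd5, Socs2, Clca3a1, Sult1a1 and Trim47. In the labelled control Fgd5 had 1 UMI in the cells with 1 Cldn5 UMI and 2 in those with at least 2. Hoxb5 had 2 and 2 UMIs there. The ratio intervals of both genes held 1 in both kinds of cell, so no difference was detectable for them in the labelled control. Several classical members were not among them. Mecom, a transcription factor that stem cells need, had ratios of 1.57 (1.24 to 1.97) and 1.15 (0.665 to 1.86), and Procr, the protein C receptor, of 1.32 (1.06 to 1.64) and 1.43 (0.926 to 2.12). Meis1 was at 1.15 and 0.749, and Kit, the stem cell factor receptor, at 1.15 and 0.588. The 5 lower genes were Rgs1, Gcnt2, Vldlr, Eya1 and Itga2b, the last an integrin of platelets.

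Of 22 measured endothelial genes that blood progenitors also use, 7 were higher and 2 lower in both libraries, beside 2.81% and 6.51% of all genes, with median log2 ratios of 0.39 and 0.54. Vwf, Jam2 and Sdpr are given above. Jam3, a partner of Jam2, had ratios of 2.35 (1.40 to 3.76) and 2.03 (0.536 to 5.49). Ramp2, a partner of the adrenomedullin receptor, had 45.7 against 5.17 CPM in the labelled knockout (8.83, 5.10 to 15.1) and 16.1 against 8.04 CPM on 2 UMIs in the labelled control (2.0, 0.232 to 7.88). Gimap4 and Ets2 were the other 2 higher genes, and Cd34 and the receptor gene Cd93 were the lower ones. In the labelled control Ets2 had 0 UMIs in the cells with 1 Cldn5 UMI and 2 in those with at least 2. No difference was detectable for it there. The interval lay above 1 in both libraries for 5 of the 22 genes, beside 0.851% of all genes. Emcn, the endomucin gene whose product was used in the sort, was at 1.17 (0.787 to 1.68) and 0.882 (0.320 to 1.95), and Pecam1, the CD31 gene, at 0.891 (0.544 to 1.39) and 1.78 (0.797 to 3.46). Of the 7 measured genes that define endothelium, Ecscr was higher, at 43.9 against 17.6 CPM (2.49, 1.54 to 3.88) and at 72.4 against 19.3 CPM (3.75, 1.65 to 7.52).

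Among the claudins, Cldn5 is high by the choice of cells. Its level was 486 CPM (429 to 548, 266 UMIs) in Cldn5-positive cells of the labelled knockout and 410 CPM (305 to 539, 51 UMIs) in those of the labelled control, as the rule requires. Of 40 genes of claudins and tight junctions in the files, 22 had no UMI in these cells, and in the far more numerous Cldn5-negative Hlf-positive cells 17 had none in the labelled knockout and 20 none in the labelled control. Cldn12 had 4 and 2 UMIs, more than any other claudin but Cldn5. Tjp1, the scaffold ZO-1 of tight junctions, had none. Jam2 and Jam3 were the 2 of 12 measured genes that were higher in both libraries, beside 2.81% of all genes. None was lower, which is near the 6.51% of all genes. Ocln, the junction protein occludin, had 6 and 4 UMIs and was too sparse to be measured by the rule.

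Of 15 measured megakaryocyte genes, 4 were higher, among them Vwf, Selp and Slamf1, and Itga2b was lower in both libraries, beside 2.81% and 6.51% of all genes. Selp, the P-selectin of platelets and endothelium, stood at 78.6 against 21.5 CPM (3.65, 2.54 to 5.15) and at 64.3 against 29.2 CPM (2.20, 0.927 to 4.49). Gata1, the master factor of red cell and platelet lineages, and Gp6 had no UMI in these cells. The platelet chemokine genes Pf4 and Ppbp were limited by the rule. The mature platelet glycoprotein gene Gp9 was at 1.08 and 1.22. Of 20 immediate-early genes, 3 were higher, namely Egr1, Klf2 and Klf4, and none lower, beside the same shares of all genes, with medians of 0.43 and 0.45.

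**Figure D3:**
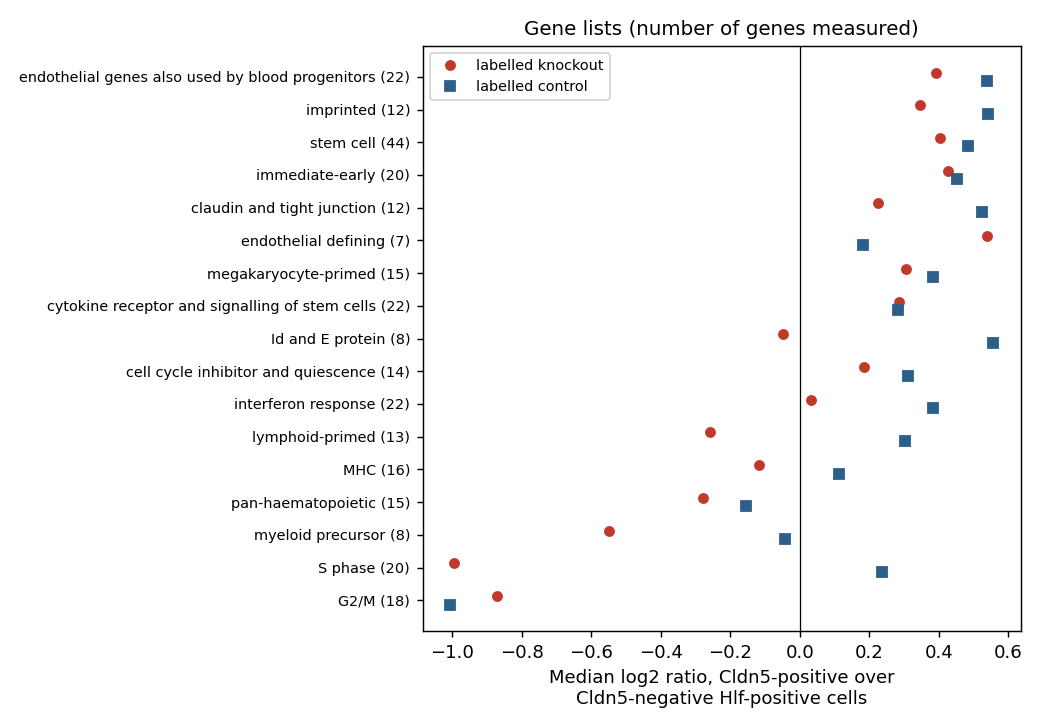
Median log2 ratio of CPM in Cldn5-positive over Cldn5-negative Hlf-positive cells (x axis) for gene lists with at least 5 measured genes (y axis, number measured in brackets), by library. The stem cell list lies at 0.40 and 0.48 and the G2/M list at -0.87 and -1.01, and the S phase list lies at -0.99 in the labelled knockout and 0.24 in the labelled control.

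Genes of late cell cycle had lower summed levels in Cldn5-positive cells. Of 18 measured G2/M genes, 7 were lower and 0 higher in both libraries, beside 6.51% and 2.81% of all genes. Their median log2 ratios were -0.87 and -1.01. Intervals lay below 1 in both libraries for 3 of the 18, beside 0.338% of all genes. Their summed level was 534 against 998 CPM in the labelled knockout and 515 against 1133 CPM in the labelled control. It came from a few cells, with 37.0% of the UMIs of the labelled knockout in 1 cell and 87.5% of those of the labelled control in 1 cell. Without that cell the levels were 346 CPM in the labelled knockout and 74.6 CPM in the labelled control. At least 2 of 6 G2/M genes were seen in 3 of 83 and 1 of 16 Cldn5-positive cells. Among Cldn5-negative Hlf-positive cells they were seen in 113 of 1178 and 45 of 524. The intervals of these shares overlap in the labelled knockout (0.752 to 10.2% against 7.97 to 11.4%). They also overlap in the labelled control (0.158 to 30.2% against 6.33 to 11.3%). Of the 15 blood-wide genes, 2 were lower (Arhgdib and Myb) and none higher in both libraries, which is near the 6.51% and 2.81% of all genes, with medians of -0.28 and -0.16.

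Few genes of other lineages could be measured, 8 of the myeloid, 3 of the erythroid, 4 of the plasma cell, 2 of the B cell and 1 each of the T and NK cell and the stromal list. That 0 of them were higher in both libraries is near the 2.81% of all genes. Of 18 myeloid precursor genes, 6 had no UMI in Cldn5-positive cells, including Mpo, Elane and Csf1r. Of the 8 measured ones, 4 were lower (Cebpa, Csf3r, S100a8 and S100a9), beside 6.51% of all genes. The interval lay below 1 in both libraries for 0 of the 8. S100a8 stood at 18.3 against 682 CPM in the labelled knockout. In the labelled control it stood at 0 UMIs against 16.9 CPM, where 3 UMIs would be 24.1 CPM, so no difference was detectable there. The summed myeloid genes stood at 1880 against 2964 CPM and at 1761 against 1832 CPM, and the erythroid ones at 1464 against 1523 CPM and at 1480 against 1831 CPM. The summed plasma cell genes stood at 621 against 601 CPM and at 547 against 595 CPM, those of stroma at 89.5 against 89.9 CPM and at 113 against 94.4 CPM, and those of T and NK cells at 25.6 against 52.0 CPM and at 24.1 against 51.2 CPM. Cxcl12, Col1a1 and Kitl of stroma, Prdm1 and Irf4 of plasma cells, and Cd3d of T cells were at 0. The summed B cell genes stood at 433 against 424 CPM and at 619 against 344 CPM, and 1 cell gave 43.9% of those of the labelled knockout, while Pax5 was at 0.

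Several leading genes stood higher in the cells with at least 2 Cldn5 UMIs than in those with 1. Vwf stood at 58.0 CPM (33.1 to 94.1) in the 41 cells with 1 UMI and at 155 CPM (112 to 209) in the 42 cells with at least 2 in the labelled knockout, against 19.8 CPM in the Cldn5-negative Hlf-positive cells. In the labelled control it stood at 56.9 CPM (15.5 to 146) in 9 cells and 167 CPM (76.2 to 316) in 7 cells, against 16.6 CPM. Nupr1 stood at 83.3 CPM (52.8 to 125) and 354 CPM (287 to 432) in the labelled knockout, against 50.04 CPM, and at 42.7 CPM (8.80 to 125) and 222 CPM (115 to 388) in the labelled control, against 49.3 CPM. Tm4sf1 stood at 29.0 and 88.5 CPM, against 7.83 CPM, and at 71.1 and 148 CPM, against 5.90 CPM. Clu did not follow Cldn5 in this way in the labelled knockout, at 94.2 and 99.5 CPM. In the labelled control it did, at 42.7 CPM (8.80 to 125, 3 UMIs) and 241 CPM (128 to 412, 13 UMIs).

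UMIs of the lymphoid genes Flt3 and Dntt and of the mitotic gene Ube2c were nearly all in a few cells with 1 Cldn5 UMI. Flt3, a receptor of lymphoid-primed progenitors, had 20 UMIs in those 41 cells of the labelled knockout and 1 in the 42 cells with at least 2, and 9 and 1 in the labelled control. The 20 UMIs were in 6 cells, and 8 of the 9 UMIs were in 1 cell. Dntt, the terminal transferase of early lymphoid cells, had 12 and 0 UMIs in the labelled knockout, 9 of the 12 in 1 cell, and 7 and 0 in the labelled control, all 7 in 1 cell. Ube2c had 33 and 0 UMIs in the labelled knockout, in 4 cells with 17 of the 33 in 1 of them, and 4 and 0 in the labelled control, all 4 in 1 cell. The G2/M genes summed to 967 CPM in the cells with 1 UMI and 92.2 CPM in the cells with at least 2 in the labelled knockout, against 998 CPM. Without the highest of the cells with 1 UMI, which held 40.4% of their G2/M UMIs, the level in the others was 610 CPM. In the labelled control they summed to 839 and 92.6 CPM, against 1133 CPM, but 56 of the 59 UMIs behind the 839 CPM were in 1 cell, and without it the level was 56.4 CPM. The contrast between the 2 kinds of cell thus rests on 1 cell in the labelled control.

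With at least 2 Cldn5 UMIs, all 18 measured G2/M genes were lower in both libraries, beside 14.0% of all genes. With exactly 1 UMI 2 genes were, beside 8.66%. In the labelled control the count of 18 rests on 7 cells with 5 G2/M UMIs in all, so it does not stand for 18 separate results. Stem cell genes that were higher in both libraries numbered 15 in the cells with at least 2 UMIs, beside 5.06% of all genes, and 5 in those with 1, beside 3.53%. Ctla2a was lowest in the cells with at least 2 UMIs, at 449 CPM with 1 UMI and 195 CPM with at least 2 in the labelled knockout, against 777 CPM, and at 370 CPM and 55.5 CPM in the labelled control, against 668 CPM. Cd34 had 43 and 12 UMIs in the labelled knockout and 10 and 0 in the labelled control, the 10 in 3 cells. Meg3 went the other way in the labelled control, with 25 of its 27 UMIs of the labelled control in cells with 1 Cldn5 UMI. This split was looked at after the values were known. Median depth was 6052 and 6649.5 UMIs in the 2 kinds of cell of the labelled knockout, and 6240 and 8187 in those of the labelled control. Whether free RNA contributed to the cells with 1 UMI was not tested.

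**Figure D4:**
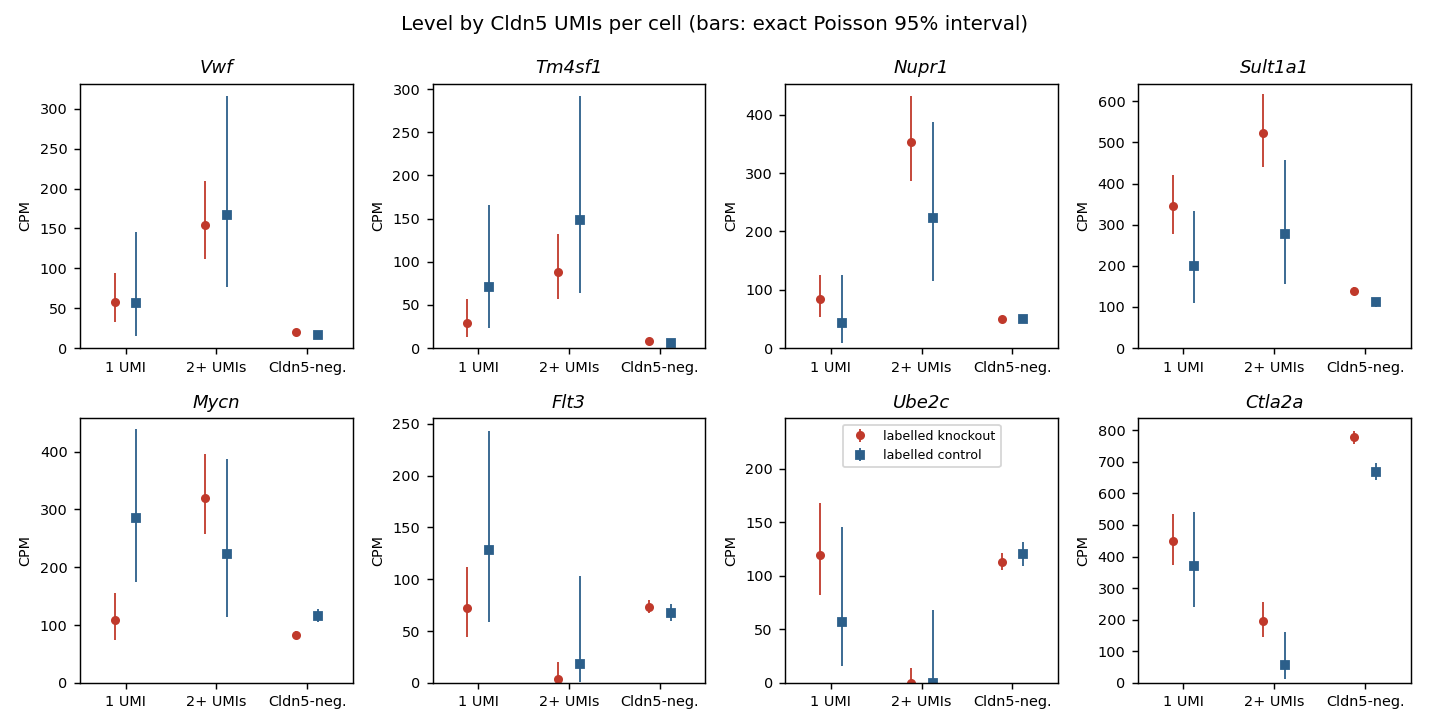
CPM (y axis) of 8 genes in cells with 1 Cldn5 UMI, cells with 2 or more and Cldn5-negative Hlf-positive cells (x axis), by library. Points are levels from summed counts and bars are exact Poisson 95% intervals. In the labelled knockout Vwf reads 58.0, 155 and 19.8 CPM, and Ube2c reads 120, 0 and 113 CPM.

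The 20 Hlf-negative Cldn5-positive cells, all in the labelled knockout, also held several of the leading genes. They had Clu at 106 CPM (53.1 to 191), Vwf at 145 CPM (81.3 to 239) and Sult1a1 at 668 CPM (520 to 845). Cldn5-negative Hlf-negative cells of that library held 7.75 CPM of Clu, 12.4 CPM of Vwf and 137 CPM of Sult1a1. The summed G2/M genes were at 38.7 CPM (10.5 to 99.1) in the Hlf-negative Cldn5-positive cells, against 688 CPM in the Cldn5-negative Hlf-negative ones. Ptprc was at 136 CPM (74.1 to 227), against 145 CPM. Against the Cldn5-negative Hlf-positive cells, the intervals of Jam2, at 2.23 (0.452 to 6.73), and of Nrg4, at 2.36 (0.754 to 5.62), held 1, and so did that of Gm19590, at 1.30 (0.819 to 1.96), which was lower over all Cldn5-positive cells.

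The targeted genes were looked at first for the comparison of the libraries. Id1 gave 4 UMIs (7.31 CPM) in the Cldn5-positive cells of the labelled knockout and 0 in those of the labelled control. The interval of the labelled control reached 29.7 CPM, so no difference was detectable for Id1. Id3 stood at 91.4 CPM (67.8 to 120, 50 UMIs) in the labelled knockout and at 48.3 CPM (17.7 to 105, 6 UMIs) in the labelled control, a ratio of 1.89 (0.811 to 5.40). In Cldn5-negative Hlf-positive cells the same ratio was 2.47 (2.05 to 3.002), so Id3 goes against the labels. The sources used here do not name the deleted part of either gene. A transcript end that lies outside that part checks nothing, so the libraries are called by their labels throughout.

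Of 4522 genes with at least 20 UMIs over the Cldn5-positive cells of both libraries, 727 (16.1%) were at least 1.5-fold higher and 665 (14.7%) lower in the labelled knockout. The interval left out 1 for 105 genes above (2.32%) and 172 below (3.8%). Cebpb, a transcription factor of myeloid cells, stood at 150 CPM in the labelled knockout and 24.1 CPM on 3 UMIs in the labelled control, a ratio of 6.21 (2.05 to 30.7). In Cldn5-negative Hlf-positive cells it was 125 and 27.9 CPM, a ratio of 4.47 (3.65 to 5.53). Klf2, a transcription factor of quiescent lymphocytes and of endothelium under flow, had ratios of 2.30 (1.67 to 3.24) and 2.02 (1.87 to 2.19) in the 2 kinds of cell, and Jund, an AP-1 factor, of 2.11 (1.64 to 2.74) and 2.06 (1.95 to 2.18).

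Tsc22d1, a leucine zipper gene induced by TGF-beta, stood at 1045 and 458 CPM in the Cldn5-positive cells, a ratio of 2.28 (1.73 to 3.05), against 1.28 (1.22 to 1.35) in the Cldn5-negative Hlf-positive ones. Klrb1c, the NK receptor NK1.1, stood at 110 CPM in 30 of 83 cells and at 16.1 CPM in 2 of 16 cells, a ratio of 6.82 (1.81 to 57.6) against 1.47 (1.03 to 2.12). Whether the ratios of any of these genes differ between the 2 kinds of cell was not tested. Ly6d, Gstp1 and Dlat had no UMI in the labelled control and were at least 2.42-fold, 2.35-fold and 2.20-fold higher in the labelled knockout, taking 3 UMIs as the floor in the labelled control. The lower bounds of their exact ratio intervals, which also cover the counting error of the labelled knockout, were 1.86, 1.80 and 1.67. A single cell gave 78.1% of the Ly6d UMIs, and without it the level was 13.2 CPM, below the floor of 24.1 CPM. Mrps15 and Wdr26 had 42 UMIs each in the labelled knockout and 1 in the labelled control, a ratio of 9.54 (1.62 to 386).

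The leading lower genes were Xist, Hist1h2al, Ccl3, Hbb-bt, Rsad2, 2810417H13Rik, Serinc3, Dnmt1, Map7 and Dnpep. Serinc3, a membrane protein gene, stood at 342 CPM in the labelled knockout and 820 CPM in the labelled control, a ratio of 0.416 (0.325 to 0.535), and at 0.523 (0.494 to 0.554) in Cldn5-negative Hlf-positive cells. It was seen in 77 of 83 and 16 of 16 cells. Hbb-bt, a globin gene, stood at 82.2 and 338 CPM (0.243, 0.156 to 0.380), and 59.5% of its UMIs in the labelled control were in 1 cell, as were 63.6% of those of the histone gene Hist1h2al, 60.7% of the chemokine gene Ccl3, 61.5% of the interferon-induced Rsad2 and all 12 of 2810417H13Rik. Xist, the RNA of the inactive X of females, stood at 111 and 507 CPM, and 4 of 83 and 4 of 16 Cldn5-positive cells held Xist and no Y-linked UMI. Among Cldn5-negative Hlf-positive cells these shares were 6.79% and 18.9%, and the part of sex in other genes was not tested.

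**Figure D5:**
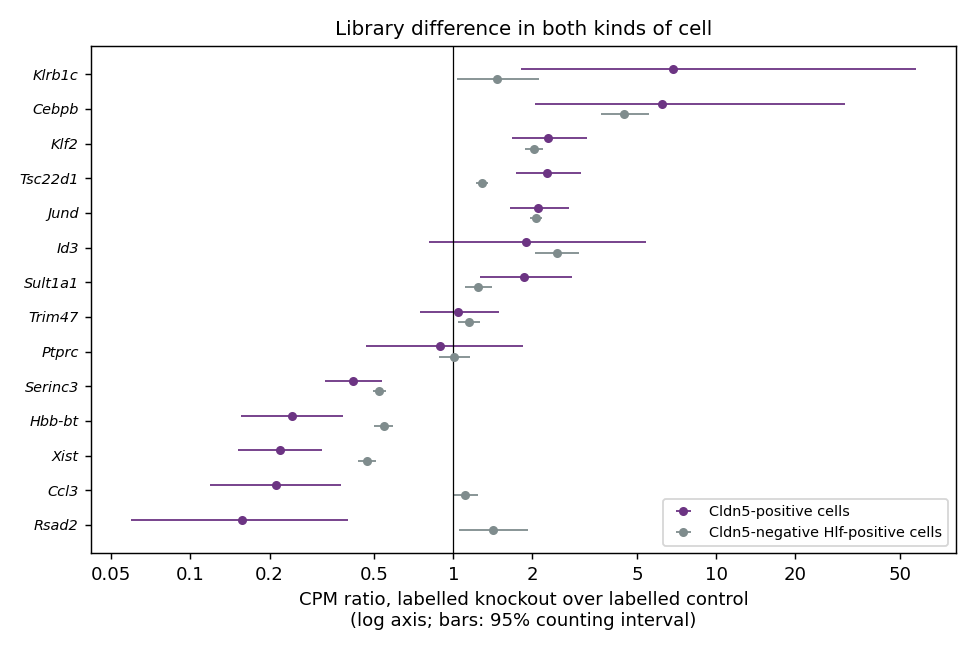
Ratio of CPM in the library labelled knockout over the library labelled control (x axis, log scale) for 14 genes (y axis), in Cldn5-positive and Cldn5-negative Hlf-positive cells. Points are ratios of summed counts and bars are 95% counting intervals. Cebpb lies at 6.21 and 4.47, Jund at 2.11 and 2.06, and Ptprc at 0.890 and 1.01.

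For Cldn5, Trim47 and Ptprc no difference between the libraries was detectable at this depth. Ratios of the labelled knockout over the labelled control in Cldn5-positive cells were 1.18 (0.875 to 1.63) for Cldn5, 1.05 (0.749 to 1.49) for Trim47 and 0.890 (0.465 to 1.84) for Ptprc. Sult1a1 was at 1.86 (1.26 to 2.83), against 1.24 (1.11 to 1.40) in the Cldn5-negative Hlf-positive cells, and Meg3 at 1.57 (1.05 to 2.45), against 0.927 (0.826 to 1.04). Of 36 stem cell genes measured between the libraries, 5 were at least 1.5-fold higher and 2 lower in the labelled knockout, and of 21 endothelial genes that blood progenitors also use, 3 were higher and 3 lower. Of 20 immediate-early genes, 7 were higher and 0 lower, and of 17 interferon response genes 2 were higher and 6 lower. Those counts stand beside 16.1% higher and 14.7% lower over all genes.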

How the data were processed

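Per the file headers and the values, the deposited matrices hold raw UMI counts of 27998 genes per barcode, made by the authors with Cell Ranger, Seurat and mm10 per the submitters' processing notes. The sources used here give no versions and do not say what Seurat did to the matrices.

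Of 3641 barcodes, 3567 had at least 200 genes and under 10% mitochondrial UMIs. The members and the gene lists were chosen with earlier results of these data known. Of 420 symbols in 23 lists, 12 had no match. Counts were summed over cells and scaled to CPM with Python 3.11.15, scipy 1.17.1 and numpy 2.4.6. Sums have exact Poisson, shares exact Clopper-Pearson, and ratios exact conditional 95% intervals, tested on simulated data. A log2 ratio has 0.5 UMIs added to each sum, a gene was measured at 20 UMIs or more, and the floor for 0 UMIs was 3.

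Named genes follow a size rule, up to 12 a direction at 1.5-fold in both libraries, ranked by the interval bound nearest to 1, up to 10 a direction between libraries, and the markers. Other genes come from the lists or were named after their values were seen, as were the splits by Cldn5 or Hlf UMIs and the values without the highest cell. Scrublet in scanpy 1.11.5 marked 5 and 9 cells of the type H libraries labelled knockout and control, and 6 and 5 of the sinusoidal ones, which stayed in. Since these are few, cells with Xist beside Y-linked UMIs were counted as well.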

Additional observations from a re-analysis of the deposited data

Results flagged for a closer look

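Both results here were picked by a rule written after the list medians had been seen: medians on opposite sides of 0 in the 2 libraries, each at least 0.2 away, with at least 5 genes measured. The S phase genes had a median log2 ratio of Cldn5-positive over Cldn5-negative Hlf-positive cells of -0.99 in the labelled knockout and 0.24 in the labelled control (20 genes). Of the 115 S phase UMIs in the Cldn5-positive cells of the labelled control, 67.0% were in 1 of 16 cells. The summed level there was 925 CPM with that cell and 354 CPM without it, against 822 CPM in the Cldn5-negative Hlf-positive cells. In the labelled knockout it was 473 CPM, and 404 CPM without the highest cell, against 792 CPM. The lymphoid-primed genes had medians of -0.26 in the labelled knockout and 0.30 in the labelled control (13 genes). Of their UMIs in the labelled control, 50.9% were in 1 cell. The summed level there was 901 CPM with that cell and 513 CPM without it, against 892 CPM. In the labelled knockout it was 654 CPM, and 532 CPM without the highest cell, against 790 CPM. No cell was taken out of the Cldn5-negative Hlf-positive cells, so levels without the highest cell do not compare like with like. The difference between the libraries was not tested for either list.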

How the results depend on the processing

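No paired analysis was possible because each group is 1 library. Over the 11 settings that can move a gene apart from the rest, 642 of 742 values of single genes moved by less than their counting error and 92 by more. The other 8 reversed, on the log2 scale. Meg3 of the labelled control went to -1.42 at 2 or more Cldn5 UMIs and to -2.33 in cells with Y-linked UMIs only, and Meg3 of the labelled knockout to -2.11 in cells with Xist only (4 cells), where Arhgdib of the labelled knockout went to 0.0762 and the library difference of Xist to 0.0585. At exactly 1 Cldn5 UMI, a setting added after seeing the data, Nrg4 of the labelled control went to -1.64, Ube2c of the labelled knockout to 0.10 and Cks2 to 0.00416. The cause was not tested.

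Counts of genes depend on the choice of cells, on depth and on how many genes could be measured. Against 9749 genes in the main comparison, 7457 were measured at 50 UMIs, 6214 under thinning and 3640 in cells with Xist only. Counts in those settings are thus not on the same base. Except where given above, counts of list genes stand here without the share of all genes in their setting, so they are not read as results about the lists. At 2 or more Cldn5 UMIs the counts were 492 higher and 1362 lower over Cldn5-negative Hlf-positive cells, 479 higher and 357 lower between libraries and 18 lower G2/M genes, and the shares of kept cells were 2.26% and 0.868%. Asking for 50 UMIs left 126, 371, 150 and 145, and 4 shared endothelial genes. Thinning left 254 and 224 between libraries and 1 shared endothelial gene. Cells with Xist only gave 164 higher genes, 38 and 49 between libraries, 4 stem cell genes and 0 shared endothelial genes. The interval rule gave 83, 33, 105 and 172, and 3 G2/M genes. Exactly 1 Cldn5 UMI gave 413 and 431 between libraries, 5 stem cell genes and 2 G2/M genes. G2/M genes lower numbered 12 without the Jchain and platelet limits, 12 without marked doublets or cells that carry Xist beside Y-linked UMIs, and 13 with each cell weighted alike. Of the 12 leading higher genes, thinning kept 4 past 1.5-fold and measured, 50 UMIs kept 5, exactly 1 UMI kept 7, and Xist only 0, and 12 stayed with 2 or more Cldn5 UMIs. Of the 12 leading lower genes, exactly 1 UMI kept 4. Under thinning, 48 of the 274 higher and 110 of the 635 lower genes were also called. The median measured gene had 3 UMIs in the 16 cells of the labelled control, so differences well past 1.5-fold go undetected for most genes there, and 1 library a group leaves the spread between mice unknown.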

Other observations

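Apoe, which encodes apolipoprotein E and was looked at after its values were seen, was higher in Cldn5-positive cells of both libraries. It stood at 687 against 366 CPM in the labelled knockout, a ratio of 1.88 (1.68 to 2.09), and at 716 against 377 CPM in the labelled control, a ratio of 1.90 (1.52 to 2.35). It was found in 78 of 83 and 15 of 16 Cldn5-positive cells, so unlike Clu or Meg3 it was spread over nearly all of them. A list of Id and E protein genes also held some other genes, among them Hes1. Of its 8 measured genes, 2 were higher and 0 lower in both libraries, beside 2.81% and 6.51% of all genes. The median log2 ratios were -0.05 and 0.56. Hes1, a target of Notch signalling, had ratios of 1.73 (1.04 to 2.73) and 3.91 (1.37 to 9.18). The E protein genes Tcf3 and Tcf4 had ratios of 0.705 (0.467 to 1.02) and 0.956 (0.695 to 1.29) in the labelled knockout. In the labelled control they had 0.714 (0.306 to 1.42) and 0.909 (0.450 to 1.65).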
